A study of Chlamydomonas reinhardtii with 15 samples.

Results

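Sulfur starvation changes transcript levels in the green alga Chlamydomonas reinhardtii. The response of the npq4 mutant was compared with that of its control strain 4A+, on all transcript models of a 2-colour Agilent array. npq4 arose by insertion and is said to lack both isoforms of LHCSR3, and 4A+ is a wild type. Cultures of both strains were grown in TAP medium, an acetate medium, to early stationary phase, washed and kept in TAP without sulfur in constant light. RNA of 3 pooled biological samples was labelled. Per the labels, each array set the RNA of a starved culture (red, Cy5) against the RNA of the same strain at 0 h (green, Cy3).

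Starved samples of both strains came from 24, 48 and 96 h. Each strain and time had a single array, so that 6 of the 15 arrays of the series entered the comparison. A 72 h array of 4A+ is given as an addition. The arrays of the wild types cc3491 and cc125 entered the fit only for the spread. Of 14557 transcript models on the array, 10108 were tested, because at least 1 of their probes stood well above background, in green or in red, on 3 or more of the 6 arrays. A symbol was known for 271 of the tested models.

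LHCSR proteins are stress-related relatives of the light-harvesting antenna. They are known for the thermal dissipation of excess light energy, measured as non-photochemical quenching, and npq4 is named after its low quenching. Under sulfur starvation, Chlamydomonas is known to induce sulfate transporters, extracellular arylsulfatases and enzymes of sulfur assimilation, while genes of photosynthesis are lowered.

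The quantity compared is the ratio, log2 of red over green, averaged over the 3 times of a strain. A gap in this ratio between the strains can lie in the 0 h culture, in the starved cultures or in both, so the log2 levels of both channels were compared as well. The 3 green values of a strain are repeated hybridisations of the same 0 h RNA. Their spread therefore covers neither the 0 h culture nor the slide, and slide and strain cannot be told apart. The median SD per model was 0.14 in green, 0.27 in red and 0.17 in the ratio for npq4, and 0.071, 0.19 and 0.13 for 4A+. Levels per channel are open to dye bias, since no exchange of dyes was stated. In red, 14313 to 19467 probes were well above background on the npq4 arrays and 8713 to 12423 on the 4A+ arrays, while the ranges for green were 16657 to 22088 and 18224 to 19605.

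Each model was measured with up to 3 designed oligonucleotides, and in many models these overlap. In a probe table given with the study, 903 of 1507 models with several probes had probes that shared a run of at least 15 bases. The probes of 3 models described below are shown because their agreement or disagreement bears on the values. They comprise PTA3 and, of the 5 models called with such overlapping probes, the models with the highest and the lowest difference, and they were chosen after their values were known. Capitals mark bases shared with another probe of the same model.
model 188207, probe 1: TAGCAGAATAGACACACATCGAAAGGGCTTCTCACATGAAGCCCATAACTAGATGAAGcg
model 188207, probe 2: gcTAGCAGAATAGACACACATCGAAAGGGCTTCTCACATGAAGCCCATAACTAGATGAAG
model 188207, probe 3: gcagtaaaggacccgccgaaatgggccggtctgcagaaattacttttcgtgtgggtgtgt
PTA3, probe 1: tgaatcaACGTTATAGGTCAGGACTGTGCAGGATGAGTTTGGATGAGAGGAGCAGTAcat
PTA3, probe 2: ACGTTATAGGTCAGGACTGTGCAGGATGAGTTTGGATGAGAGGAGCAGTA
PTA3, probe 3: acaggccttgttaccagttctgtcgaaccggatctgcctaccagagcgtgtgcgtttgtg
model 120741, probe 1: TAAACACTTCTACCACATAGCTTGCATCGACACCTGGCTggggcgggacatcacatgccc
model 120741, probe 2: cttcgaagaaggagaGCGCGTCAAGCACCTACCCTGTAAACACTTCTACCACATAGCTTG
model 120741, probe 3: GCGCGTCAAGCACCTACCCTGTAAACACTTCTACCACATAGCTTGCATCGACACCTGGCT
Probes 1 and 2 of model 188207 share 58 of 60 bases, and probes 1 and 2 of PTA3 share 50. They repeat nearly the same measurement, and only probe 3 of these models is a separate stretch of the transcript.

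The targeted gene was looked at first. LHCSR3 was not well above background in npq4 on any probe, array or channel. In 4A+, probes 1 and 2 were seen at 0 h on all 3 arrays, and probe 3 on none. The green level of the model was 5.86, 5.85 and 5.99 on the 24, 48 and 96 h arrays of npq4, and 7.31, 7.09, 7.03 and 7.48 on the 24, 48, 72 and 96 h arrays of 4A+. The red level was 5.98, 5.96 and 6.14 in npq4 and 8.19, 8.27, 7.62 and 9.11 in 4A+. In both channels every array of 4A+ lay above every array of npq4.

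On probe 1 of LHCSR3, 4A+ was at least 3.80-fold higher than npq4 at 0 h and at least 15.2-fold higher after starvation. Such a bound takes the mean level of 4A+ over that of npq4, after each npq4 value was raised, where needed, to the dimmest signal still well above background on its array. The differences of the model were -1.39 ± 0.72 (SE) in green and -2.50 ± 0.49 in red, with a Holm adjusted p of 1 in both (limma). Its ratio was 0.12, 0.11 and 0.15 in npq4, where both channels were at background and the ratio measures no response. In 4A+ it was 0.88, 1.18, 0.59 and 1.63. In cc3491 the same model reached a mean red level of 11.14, above the 8.52 of 4A+.

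LHCSR2 is the model of the other isoform gene and lies next to LHCSR3 in gene order. Its copies are nearly identical, so that probes may read both. The green level of LHCSR2 was 6.27, 5.96 and 5.96 in npq4 and 6.66, 6.61, 6.60 and 6.81 in 4A+. The red level was 6.32, 6.04 and 5.99 in npq4 and 6.78, 7.03, 6.99 and 7.51 in 4A+. The strains did not overlap, but the differences of -0.63 and -0.99 did not pass the test. LHCSR1 is a further relative. Its ratio was 4.29, 4.87 and 5.82 in npq4 and 4.74, 6.05, 5.65 and 5.16 in 4A+, and the strains overlapped. Every array was positive, but neither mean, 4.99 in npq4 and 5.32 in 4A+, passed the test against 0 (Holm adjusted p = 1 and 0.69). The SE of each mean, 0.90, comes from the spread pooled over all 14 arrays of the fit. Over the 3 matched arrays the SD was 0.77 in npq4 and 0.67 in 4A+, so the test does not measure the spread within these strains alone. The ratio differed by -0.32 ± 1.27 (SE, Holm adjusted p = 1). Its 3 probes disagreed, with differences of -1.62, -1.44 and 2.09.

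The low signal in npq4 extended to neighbouring models. The order of genes was taken from a RefSeq table of another assembly, so no coordinates are given. Model 184735 lies 2 genes after LHCSR3 and has no symbol. Its probes 2 and 3 were not well above background on any npq4 array, and probe 1 was so on 1. Its green level was 6.03, 5.93 and 6.03 in npq4 and 11.83, 11.73, 11.76 and 11.73 in 4A+. Its red level was 6.14, 5.99 and 6.14 in npq4 and 10.64, 10.49, 9.91 and 10.06 in 4A+. The strains were far apart in both channels, by -5.76 ± 0.54 in green (Holm adjusted p = 0.00153) and -4.30 ± 0.21 in red (2.57e-07). On probe 2, 4A+ was at least 163-fold higher at 0 h and at least 58.7-fold higher after starvation. Both calls held under all 11 alternatives run.

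OASTL1, an O-acetylserine (thiol) lyase of the last step of cysteine synthesis, lies 3 genes after LHCSR3. None of its 3 probes was well above background on any npq4 array, while all 3 were seen at 0 h on every 4A+ array. Its green level was 5.92, 5.93 and 5.94 in npq4 and 8.71, 8.64, 8.64 and 8.71 in 4A+. Its red level was 5.86, 5.85 and 5.98 in npq4 and 7.96, 7.86, 8.68 and 7.95 in 4A+. The gap was as clear in red as in green, with differences of -2.76 ± 0.33 in green (Holm adjusted p = 0.0183) and -2.03 ± 0.23 in red (0.0067). The call at 0 h was lost when any of the 6 arrays was left out, and the call after starvation was lost without any of them but the 96 h array of npq4. The highest adjusted p over the alternatives was 0.19 at 0 h and 0.23 after starvation. The ratio differed by 0.73, which did not pass the test, because both channels were low together.

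On the other side, model 150234 lies directly before LHCSR3. Only probe 1 passed the filter. Its green level was 5.88, 5.85 and 5.97 in npq4 and 6.94 to 7.12 in 4A+. The red level was 5.88, 5.99 and 5.98 in npq4 and 8.45, 8.57, 8.78 and 8.01 in 4A+. Its red difference of -2.40 ± 0.30 passed the test (Holm adjusted p = 0.0248), and the green difference of -1.11 did not. The call was lost on leaving out any of the 6 arrays (adjusted p up to 0.27). Probe 2 lay at 6.03 in green and 6.05 in red in npq4, against 6.07 and 6.02 in 4A+. Probe 3 lay at 5.95 and 6.07 in npq4, against 6.30 and 6.45 in 4A+. Neither was well above background on a matched 4A+ array, so the gap of this model rests on probe 1. Model 150233, 2 genes before LHCSR3, lay at 6.08 in green and 6.01 in red in npq4, against 6.31 and 6.18 in 4A+. Its differences of -0.23 and -0.17 did not pass the test. Model 175641, 3 genes before LHCSR3, had no tested probe. Beyond these genes, at steps chosen after the values were seen, model 16794, the next after OASTL1, was seen in npq4, with differences of 0.44 in green and 0.48 in red. Models 150234, 184735, LHCSR2, LHCSR3 and OASTL1 were each seen on all 4 arrays of cc3491. Whether the insertion removed these genes was not tested.

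**Figure D1:**
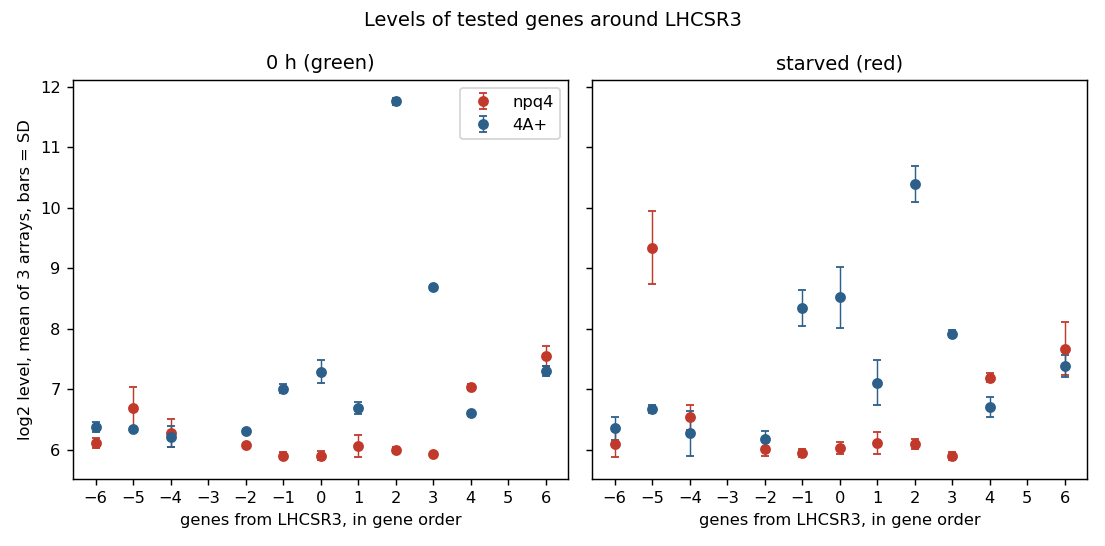
Mean log2 level of the tested genes around LHCSR3 (step 0) in gene order, in green (0 h, left) and red (starved, right), with points for the mean of 3 arrays and bars for the SD (npq4 in red, 4A+ in blue). From step -1 to step 3 the npq4 levels lie at 5.90 to 6.11, while those of 4A+ reach 11.76 in green at step 2. At steps -2 and -6 npq4 is about as low, at 6.01 to 6.11, but there 4A+ is low too, at 6.18 to 6.38. Steps are gene order and not distance.

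Over all models, the starvation response differed between npq4 and 4A+ in 104 of 10108 models (1.03%), of which 86 were higher in npq4 (0.851%) and 18 lower (0.178%). A model was called where the Holm adjusted p of limma was below 0.05 over all models tested and the difference was at least 2-fold. The 0 h level differed in 516 models (5.1%), with 185 higher in npq4 (1.83%) and 331 lower (3.27%). The starved level differed in 90 (0.89%), with 24 higher (0.237%) and 66 lower (0.653%). Both levels were lower in npq4 in 54 models (0.534%). Against 0, the ratio rose in 100 models (0.989%) and fell in 179 (1.77%) in npq4, together 2.76% of those tested. In 4A+ it rose in 111 (1.1%) and fell in 225 (2.23%), together 3.32%. Ratios of the 3 npq4 and the 3 matched 4A+ arrays did not overlap in 41.5% of all models, so a lack of overlap alone marks no gene.

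For 99 of the 104 models the gap lay at 0 h, meaning that at least 66.7% of the difference in the ratio came from green. For 3 it lay in both levels and for 2 in the starved level, where green gave at most 33.3%. The share at 0 h was 95.2% under this call, but 68.7% among the 547 models with a Benjamini-Hochberg adjusted p below 0.05 (5.41% of those tested, 3.11% higher and 2.31% lower in npq4). Among the 1043 models with at least a 2-fold difference at any p, a limit chosen after seeing the data, it was 53.5%, and 32.4% lay in the starved level. Green, repeated from 1 RNA per strain, varied less than red, and the part of this in the share was not tested. Without the 48 h array of npq4, the 48 h array of 4A+ or the 96 h array of 4A+, the count of 104 fell to 61, 63 and 66.

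The 86 models with a higher ratio in npq4 were alike in form. All 86 had their gap at 0 h. The median difference was 2.75 in the ratio, against 0.03 over all models, -3.15 in green and -0.61 in red. The starved level also passed its test in 27 of the 86, beside 90 of all 10108 models. In 72 of the 86 the red gap had the same sign as the green gap, beside 7691 of all models. In 74 of the 86 the transcript fell in 4A+ during starvation, beside 225 of all models. In npq4 the ratio was under 2-fold in 78, as it was in 8738 of all 10108 models. The call selects for a lower ratio in 4A+, so the fall there is partly given by the call. The median green level was 7.66 in npq4, 11.34 in 4A+ and 8.07 in cc3491, a wild type that was not part of the comparison. The green level of cc3491 lay nearer to npq4 than to 4A+ in 84 of the 86, and in 6366 of all 10108 models. The median difference was 2.50, 2.69 and 2.73 when the arrays of 24, 48 and 96 h were set against each other. Of 84 models with several tested probes, 82 had the same sign on every probe, beside 4294 of 6755 over all models. Since the call was made on the mean of these probes, which often overlap, such agreement is partly given by the call. Only 1 of the 86 had a symbol.

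That model was CDO1, a cysteine dioxygenase, which oxidises the sulfur of cysteine. The ratio of CDO1 was 3.33, 3.36 and 3.67 in npq4 and -1.01, -0.78, -1.56 and -1.32 in 4A+. The green level was 7.78, 7.67 and 7.92 in npq4 and 12.08, 12.12, 12.21 and 12.24 in 4A+, and the red level 11.11, 11.03 and 11.59 against 11.07, 11.34, 10.65 and 10.92. Starved cultures of both strains thus held overlapping levels, and the strains were apart only at 0 h. The ratio differed by 4.49 ± 0.30 (SE, Holm adjusted p = 3.9e-05), the green level by -4.36 and the red level by 0.13. CDO1 rose in npq4, whereas its change of -1.04 in 4A+ did not pass the test. In cc3491, with a green level of 9.67, the ratio was 1.75.

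Of the models without a symbol, model 76989 had the largest difference of all called models, 5.11 ± 0.23 (Holm adjusted p = 4.9e-07). Its ratio was 0.88, 1.69 and 1.55 in npq4 and -3.48, -3.76, -4.30 and -3.97 in 4A+. The green level was 7.97, 8.18 and 8.27 in npq4 against 13.77, 13.73, 13.82 and 13.76 in 4A+, and the red level 8.85, 9.87 and 9.82 against 10.29, 9.97, 9.52 and 9.79. It fell in 4A+ from a high 0 h level and rose in npq4 from a low level. Model 144348 had ratios of 0.09, 0.06 and 0.64 in npq4 and of -4.33, -4.57, -5.50 and -4.63 in 4A+. Its green level was 9.32 to 9.46 in npq4 and 15.85 to 16.19 in 4A+, where 1 of its probes was saturated, so that the gap of 6.52 at 0 h may be too small. Its red level was 9.41, 9.40 and 10.10 in npq4 and 11.52, 11.33, 10.68 and 11.30 in 4A+. Model 187064 had ratios of 0.59, 0.93 and 0.46 in npq4 and of -3.54, -3.95, -4.21 and -3.86 in 4A+, and its green levels were 6.82 to 6.99 and 12.49 to 12.57. Its red level was 7.58, 7.76 and 7.41 in npq4 and 8.95, 8.59, 8.33 and 8.71 in 4A+. No array of npq4 reached those of 4A+ in green in any of the 3 models, and in models 144348 and 187064 none did in red either, with red differences of -1.75 and -1.17 that did not pass the test.

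Model 188207, whose probes are shown above, had ratios of -0.51, -1.10 and -0.91 in npq4 and of -4.72, -4.45, -5.63 and -4.88 in 4A+. The difference was 4.50 and 4.45 on the overlapping probes 1 and 2 and 2.58 on the separate probe 3. The direction was shared by all 3, while the size was not.

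**Figure D2:**
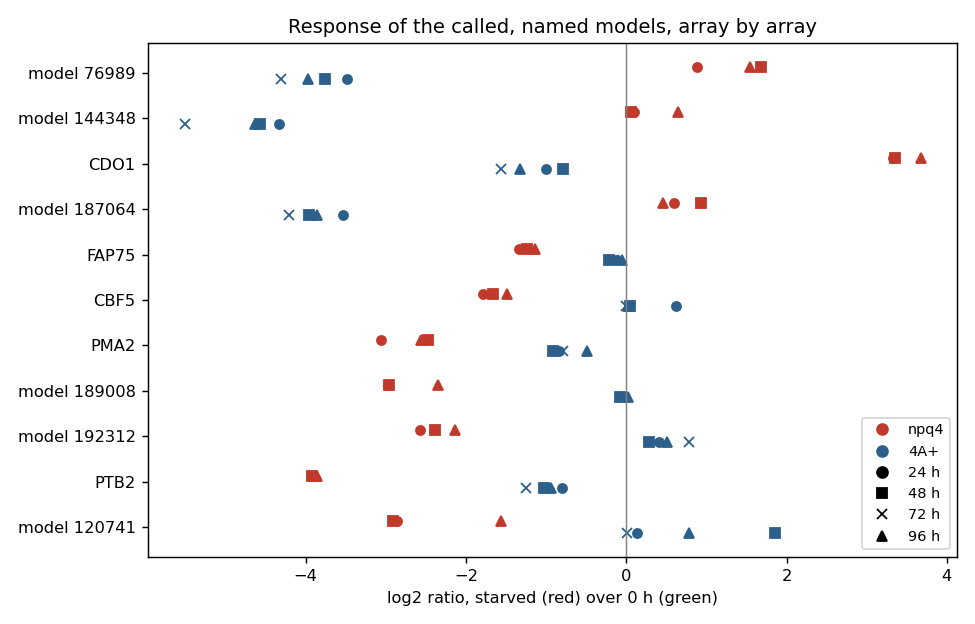
Log2 ratio of red (starved) over green (0 h) on every array for the called models named here, npq4 in red and 4A+ in blue, with a symbol for each time point. CDO1 and models 76989, 144348 and 187064 lie higher in npq4 on every array, and the other 7 lie lower.

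The 18 models with a lower ratio in npq4 had a median difference of -1.97. In 15 of them the transcript fell in npq4, beside 179 of all models, which is partly given by the call. In 15 the ratio of 4A+ was under 2-fold, as it was in 8781 of all 10108 models. The gap lay at 0 h in 13, in both levels in 3 and in the starved level in 2. In 7 of the 18, and in 3901 of all models, no tested probe was well above background in red on any matched 4A+ array, so the fall in 4A+ has only a bound there. The green level of cc3491 lay nearer to npq4 in 12 of the 18, a share close to that of all models given above.

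PTB2, a sodium/phosphate symporter, had the lowest ratio among the called models with a symbol. The ratio of PTB2 was -3.92, -3.92 and -3.86 in npq4 and -0.80, -1.02, -1.25 and -0.94 in 4A+. The green level was 11.33, 11.43 and 11.48 in npq4 and 8.61, 8.62, 8.40 and 8.57 in 4A+, while the red levels overlapped at 7.41 to 7.62 and 7.15 to 7.80. PTB2 was thus more abundant in npq4 at 0 h. The ratio differed by -2.98 ± 0.21 (Holm adjusted p = 9.3e-05) and the green level by 2.81. None of the 3 probes was well above background in red on a matched 4A+ array, so the red levels of the strains cannot be compared, and in the scanner software's signals they differed by 1.86. With the scanner software's own ratio the difference was -0.99 and did not pass the test, and the call was lost under 3 of 16 alternatives. In cc3491, the ratio was -3.18 from a green level of 11.22.

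PMA2, a proton pump of the plasma membrane, had ratios of -3.06, -2.47 and -2.56 in npq4 and of -0.84, -0.91, -0.79 and -0.49 in 4A+. Its green level was 10.90, 10.93 and 11.07 in npq4 and 8.35, 8.26, 8.21 and 8.32 in 4A+. The gap lay at 0 h, where npq4 was higher, and the ratio differed by -1.95 ± 0.22 (Holm adjusted p = 0.0169). This call was lost under 13 of 17 alternatives. Among them were leaving out any of the 6 arrays (adjusted p from 0.055 to 0.15) and the scanner software's ratio (adjusted p = 1).

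CBF5 encodes a pseudouridine synthase that is known in yeast for the modification of ribosomal RNA. The ratio of CBF5 was -1.79, -1.67 and -1.49 in npq4 and 0.62, 0.05, 0.00 and 0.02 in 4A+, a difference of -1.88 ± 0.19 (Holm adjusted p = 0.00395). Its green level was 8.73 to 9.02 in npq4 and 6.95 to 7.04 in 4A+, and its red levels overlapped. FAP75, a flagellar associated protein, had ratios of -1.34, -1.24 and -1.14 in npq4 and of -0.13, -0.22, -0.16 and -0.05 in 4A+. The difference of FAP75 was -1.11 ± 0.10 (Holm adjusted p = 0.00149), with green levels of 7.13 to 7.72 and 6.10 to 6.29. Both models were below background in red on some or all probes in 4A+. The call of FAP75 was lost under 6 of 16 alternatives and that of CBF5 under 4 of 17, with an adjusted p of up to 1. Those of FAP75 were the scanner software's ratio, no offset, normexp fitted on all spots, the 6 arrays alone, the time block and no filter, where its difference of -0.73 was under 2-fold. Those of CBF5 were median centring, normexp on all spots, the 6 arrays alone and the time block.

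Among the models without a symbol, 192312 and 189008 were called lower in npq4. Model 192312 had ratios of -2.57, -2.39 and -2.14 in npq4 and of 0.41, 0.28, 0.79 and 0.51 in 4A+, with a difference of -2.76. Model 189008 had ratios of -2.97, -2.96 and -2.35 against -0.02, -0.08, -0.05 and 0.02, with a difference of -2.73. In 4A+, model 189008 was not well above background in red on either tested probe, nor in green on 1 of the 2, so that its ratio there measures no response and the size of the difference is not exact. Both gaps lay at 0 h, with green levels of 10.05 to 10.35 and 8.76 to 9.04 in npq4 and of at most 7.17 and 6.13 in 4A+. Both calls were lost without any of the 6 arrays but the 96 h array of npq4, with an adjusted p of up to 0.092 and 0.20. Over all alternatives the call of 192312 was lost under 10 of 17 and that of 189008 under 7 of 16, with an adjusted p of up to 1.

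Models 120741 and 193461 were called with the gap in the starved level. Model 193461, with 1 tested probe and named after its values were seen, differed by -1.64 in the ratio and by -1.75 in red. For model 120741 the separation was wider. The ratio of model 120741 was -2.86, -2.91 and -1.56 in npq4 and 0.14, 1.86, 0.01 and 0.79 in 4A+. The green levels were 11.88 to 12.05 and 11.53 to 11.91, and the red levels 9.02, 9.10 and 10.49 against 11.67, 13.66, 11.74 and 12.70. Both strains thus started from about the same 0 h level, and only npq4 fell. The difference of -3.37 ± 0.41 (Holm adjusted p = 0.0286) rests on probe 1. Probes 2 and 3 did not pass the filter, although they share 39 of the 60 bases of probe 1 between them, and they lay at levels of 5.77 to 6.31 on every array of both strains. The call was lost without the 24 or 48 h array of npq4 or the 48 or 96 h array of 4A+, with an adjusted p of up to 0.27. Over all alternatives it was lost under 8 of 17.

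**Figure D3:**
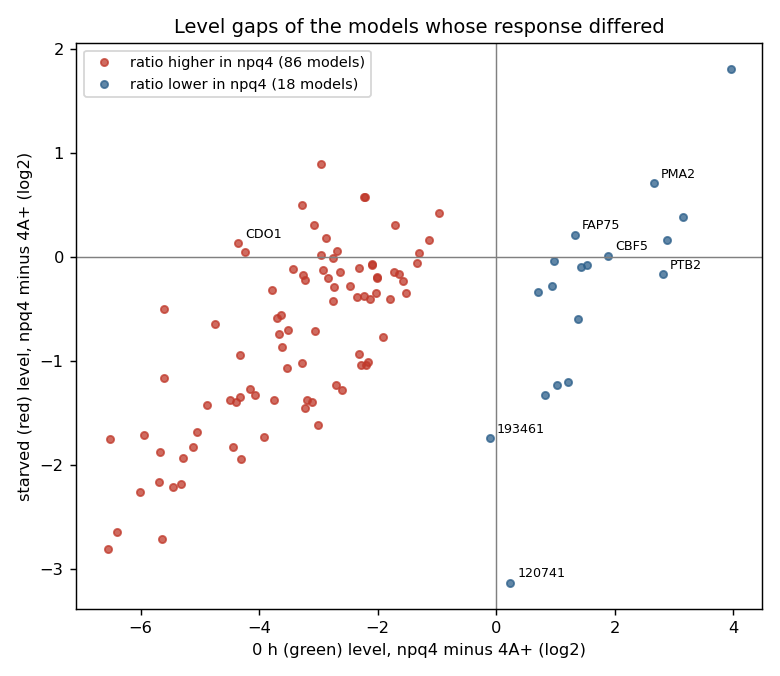
Difference in log2 level between npq4 and 4A+ at 0 h (green, x axis) and after starvation (red, y axis) for the 104 models whose ratio differed, 86 higher in npq4 (red points) and 18 lower (blue points). Points far along the x axis and near 0 on the y axis have their gap at 0 h, and model 120741, at -3.14 in red, is set apart in the starved level.

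Since only 1 named model was called higher and 4 lower, further models with a symbol were taken at a Benjamini-Hochberg adjusted p below 0.05 and at least 2-fold, of which none passed the Holm limit. ATS2 encodes ATP sulfurylase, which activates sulfate in the first step of assimilation. The ratio of ATS2 was 3.12, 3.58 and 3.99 in npq4 and 0.12, 1.83, 1.37 and 1.36 in 4A+. The green level was 8.53, 8.60 and 8.80 in npq4 and 12.10, 11.91, 12.07 and 12.08 in 4A+. The starved level was 11.66 to 12.79 in npq4 and 12.22 to 13.75 in 4A+, so that ATS2 was high in both strains after starvation but in 4A+ also at 0 h. The ratio differed by 2.46 ± 0.58 (Benjamini-Hochberg adjusted p = 0.020), and the gap lay at 0 h.

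VSP3, a hydroxyproline-rich protein of the cell wall, fell in 4A+ from a high 0 h level. Its ratio was -1.48, -1.33 and -0.51 in npq4 and -3.23, -3.41, -3.72 and -3.30 in 4A+, and its green level was 7.89 to 8.36 against 12.05 to 12.11. CDJ4, a DnaJ-like co-chaperone of the chloroplast, rose in npq4, with ratios of 3.17, 3.49 and 3.00 against 1.52, 1.90, 1.42 and 0.94 in 4A+. The CDJ4 gap of 1.77 lay at 0 h, with green levels of 6.89 to 7.20 and 8.62 to 8.77. IPY3, an inorganic pyrophosphatase, differed by 1.03 with the gap at 0 h. CPO1, ELG11 and VPS33 differed by 1.45, 1.08 and 1.02 with the gap in the starved level.

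Of the models with a lower ratio in npq4, PTA3 had ratios of -4.50, -4.90 and -4.43 in npq4 and of -1.12, -1.11, 0.02 and -0.98 in 4A+. The green level of PTA3 was 13.05, 13.06 and 13.11 in npq4 and 8.52, 8.44, 8.30 and 8.38 in 4A+, a difference of 4.63 that passed the test of the 0 h level. The study's tables name this model both PTA3, a proton/phosphate symporter, and PTB3, a sodium/phosphate symporter, so its identity is uncertain. The model was thus far more abundant in npq4 at 0 h, like PTB2. In cc3491 its green level was 8.67, near that of 4A+. The difference in the ratio was -3.41 and -3.25 on the overlapping probes 1 and 2 and -3.96 on probe 3, with no probe above background in red on a matched 4A+ array. The model's -3.54 ± 0.96 had a Benjamini-Hochberg adjusted p of 0.039.

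ATPC, the gamma subunit of the chloroplast ATP synthase, had ratios of -2.46, -1.68 and -2.49 in npq4 and of -0.74, -0.09, -0.35 and 0.37 in 4A+, with green levels of 10.82 to 11.07 and 8.76 to 8.85. Its gap of -2.05 lay at 0 h. So did those of PUF4 (-2.01), RHE (-1.78), HRP3 (-1.59), ZRT5 (-1.30) and FAP151 (-1.20). PUF4 is a Pumilio-family RNA-binding protein and ZRT5 a zinc transporter. CGL73, a conserved protein of the green lineage, was different. Its ratio was -0.14, 0.32 and 2.46 in npq4 and 4.62, 4.55, 4.53 and 4.19 in 4A+, with green levels of 9.35 to 10.57 and 9.64 to 10.07. The red level of CGL73 was 10.43, 10.84 and 11.81 in npq4 against 14.43, 14.20, 14.60 and 13.87 in 4A+, and the difference of -3.14 in red passed the test (Holm adjusted p = 0.000493). CGL73 rose in 4A+, and in npq4 its ratio was highest at 96 h.

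Of 144 tested models in 20 lists of genes taken from the study's tables, 4 were called (2.78%, beside 1.03% of all models), and 13 at the Benjamini-Hochberg limit (9.03%, beside 5.41%). The 4 were CDO1, PTB2, PMA2 and FAP75. The study chose many of these genes for their response on these arrays. Of the sulfur genes, none of the 5 for scavenging and extracellular proteins, of the 4 sulfate transporters or of the 9 for assimilation differed in the ratio by the Holm limit. OASTL1, 1 of the 9 for assimilation, did differ in both levels, as given above. It was at background in npq4, so its ratio there measures no response. ARS1, an extracellular arylsulfatase, rose in both strains, with ratios of 2.45, 2.40 and 3.40 in npq4 and of 3.70, 3.63, 2.68 and 3.40 in 4A+. SABC, listed with the sulfate transporters, also rose in both, with ratios of 1.97, 2.74 and 2.76 and of 3.58, 3.82, 3.33 and 2.95. Of the 4 sulfate transporter models, 3 rose in npq4 and 2 in 4A+, and 1 fell in each strain, beside 100 and 111 rising and 179 and 225 falling of all 10108 models. The difference was 0.48 for SLT2, a sodium/sulfate transporter, and 0.48 for SUOX1, a sulfite oxidase.

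None of the 9 tested light-harvesting models was called, and their median ratio was -1.95 in npq4 and -1.88 in 4A+. LHCBM9, an antenna protein of photosystem II that is known to be induced without sulfur, rose in both strains, with ratios of 4.69, 5.14 and 5.29 in npq4 and of 6.39, 6.54, 5.88 and 5.85 in 4A+. The difference of -1.22 did not pass the test and turned to 0.54 with median centring. LHCBM4 was higher in npq4 at 0 h, at 9.61 to 9.82 against 7.48 to 7.70, and its ratio differed by -1.20. Of 8 models of photosystems and electron transport, only ATPC passed the Benjamini-Hochberg limit, and none of the 4 tetrapyrrole models did. EFG1, a chloroplast elongation factor, passed the Holm limit (adjusted p = 0.038), but its difference of -0.93 was under 2-fold.

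CYC6, the cytochrome that replaces plastocyanin, shows a limit of the levels. Its red level was 6.19, 6.33 and 12.04 in npq4 and 14.54, 12.24, 10.31 and 12.36 in 4A+. Its green level, which is the same 0 h RNA on each array of a strain, was 6.17, 6.36 and 8.71 in npq4 and 10.27, 8.99, 8.26 and 9.14 in 4A+, in the same order as red. For a transcript with such a bright red signal, a gap in green cannot be told apart from one in red. The ratio differed by -2.47 ± 1.16, which did not pass the test.

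Among the genes for other nutrients, 1 model was called. The call was that of PTB2, 1 of 5 phosphate models. The median difference of the 5 was -0.65, and all 5 were negative, as were 4581 of all 10108 models. With the scanner software's ratio, with median centring and without an offset, 4 of the 5 were negative, with medians of -1.85, -0.61 and -1.25. None of the 8 inorganic carbon models, the 6 nitrogen and amino acid models, the 5 hydrogen and fermentation models or the 3 metal models was called. CAH1, the periplasmic carbonic anhydrase, fell in both strains, with ratios of -1.87, -1.82 and -1.33 in npq4 and of -1.23, -1.22, -1.62 and -1.10 in 4A+. Its difference of -0.49 turned to 0.57 with the scanner software's ratio and to 0.26 with median centring. Of 18 flagellar models, 1 was called, and 7 fell in npq4 and 3 in 4A+, beside 1.77% and 2.23% of all models. Their median difference was -0.29, and 14 were negative, which became 10 with the scanner software's ratio, 11 with median centring and 12 without an offset. Neither the 7 chaperone models, the 7 cell wall models nor the 5 initiation factor models held a call.

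**Figure D4:**
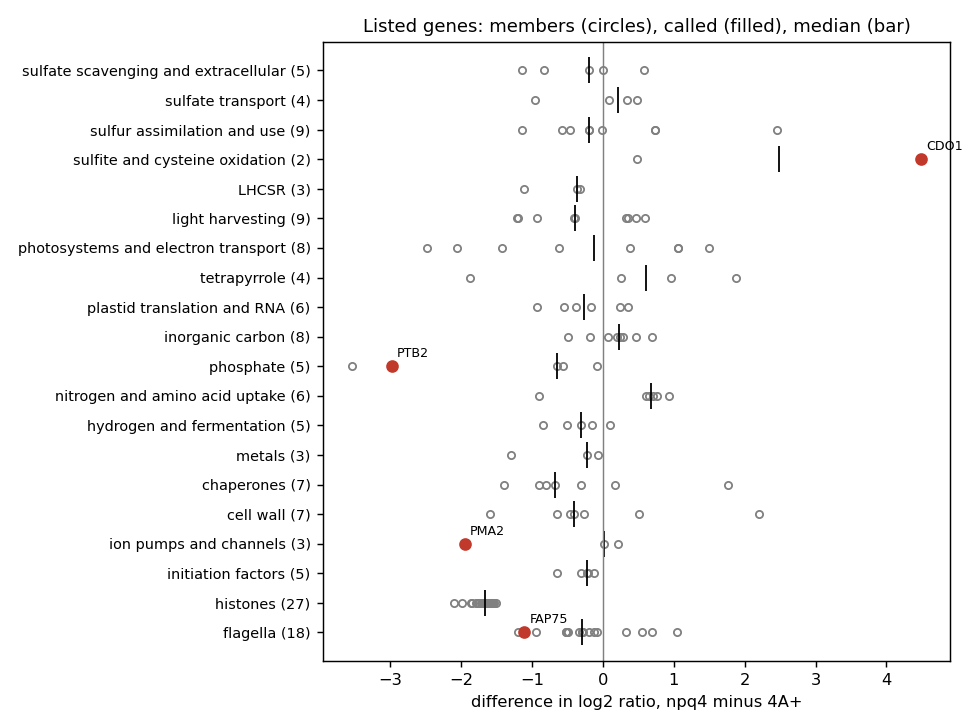
Difference in log2 ratio, npq4 minus 4A+, for the tested members of each gene list (circles, number of models in brackets), with called models filled and named and the list's median as a bar. Of 144 models 4 are filled, and all 27 histone circles lie below 0, down to -2.10.

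All 27 tested histone models had a lower ratio in npq4, with a median of -1.66 and a lowest value of -2.10, beside a median of 0.03 over all models. None was called by the Holm limit, and 1, HTB7 for histone H2B, passed the Benjamini-Hochberg limit (adjusted p = 0.047). Histone genes are near-identical copies, so that their probes are not 27 separate measurements. All 27 kept the sign under each scaling, with a median of -2.14 for the scanner software's ratio, -2.06 without an offset and -0.41 with median centring, where the median of all models was 0.23.

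The arrays differed by time. The median histone ratio was -0.08, -0.18 and 1.19 on the 24, 48 and 96 h arrays of npq4 and 1.95, 1.93, 1.90 and 2.12 on the 24, 48, 72 and 96 h arrays of 4A+. The median red level was 7.22, 7.40 and 9.44 in npq4 and 10.93, 10.80, 10.95 and 11.15 in 4A+. The gap was therefore larger at 24 and 48 h than at 96 h, where the difference was -0.91. The median green level was 7.35, 7.60 and 8.24 in npq4 and 8.88 to 9.08 in 4A+. Both levels were lower in npq4, with list medians of -2.81 in red and -1.22 in green. As for CYC6, green was highest on the npq4 array where red was highest, although its RNA was the same. A gap in green therefore cannot be told apart from one in red, and the histone gap is assigned to neither level.

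**Figure D5:**
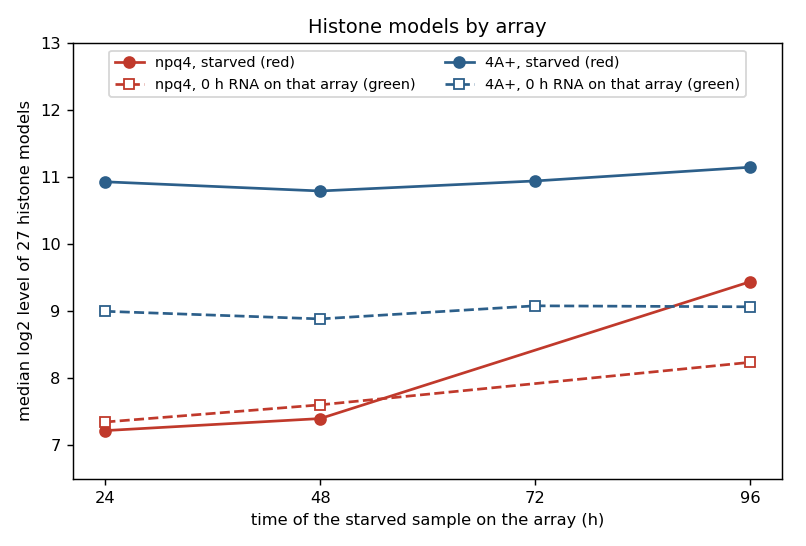
Median log2 level of 27 histone models on each array, by the time of the starved sample, in red (filled circles) and in the 0 h RNA of the same array in green (open squares), for npq4 (red) and 4A+ (blue). The starved level of 4A+ stays at 10.80 to 11.15, and that of npq4 is 7.22 at 24 h and 9.44 at 96 h.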

How the data were processed

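The authors deposited the scanner output of 15 arrays, which gives per channel the raw intensity of a spot and of its surroundings (median pixels). The deposited files also hold processed intensity values and a log10 ratio, made by Agilent Feature Extraction 10.7.3.1. Both served only in alternatives, the ratio for ratios and the processed intensities for levels. Tests used the intensities, after normexp background correction (offset 50, parameters estimated without outlier-marked spots and without spots whose net signal was below -100) and loess within arrays. Control spots were left out and saturated spots kept. For levels of a single channel, Aquantile followed loess. Model values are means over tested probes, of which there were 20572, and 3353 models had 1.

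limma 3.58.1 in R 4.3.3 fitted 1 coefficient per strain to 14 arrays, all but the 72 h array of 4A+. Differences are npq4 minus 4A+, called as stated in the report. In 174 models a missing spot was dropped from the fit. The members, lists, tests and the rule for naming genes were chosen with earlier results of these data known. The rule named the LHCSR genes and 3 neighbours each side, called list members, 2 members per list with the largest difference, up to 10 models with a symbol each way and 3 without. Symbols came from the study's tables. A table whose names did not line up with its models was left out, so some listed genes have no model here. The array's probes were designed on JGI 3.1, and gene order came from a RefSeq table of version 5.5, in which 12302 models had a locus. In simulated data with 10108 models, 43 of 100 models changed by 1.5 and 83 of 100 changed by 3 on the log2 scale were recovered, with 0 false calls. With Benjamini-Hochberg adjustment 69 and 95 were recovered, with 3 false calls each time. Error shared by all arrays of a strain, from its 0 h RNA or slide, cannot be estimated here, so these counts do not cover it. The tests used no block on time point. Deviations from the strain mean correlated between the strains by 0.13, -0.14 and 0.14 at equal times. At unequal times the correlations were -0.25 to 0.22. With 3 arrays per strain such deviations depend on each other, so they cannot decide whether time pairs the arrays. Precision is limited by 3 arrays per strain. Alternatives were the scaling, the offset, the normexp fit, the adjustment, the 72 h array, the arrays in the fit, a time block, the filter, single probes and leaving out each array.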

Additional observations from a re-analysis of the deposited data

Results flagged for a closer look

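A difference between the strains that passed the test stood out for CDO1 (4.49), models 76989 (5.11), 144348 (4.77) and 187064 (4.44), and, lower in npq4, for PTB2 (-2.98), PMA2 (-1.95), CBF5 (-1.88), FAP75 (-1.11) and models 120741 (-3.37), 192312 (-2.76) and 189008 (-2.73).

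A single array stood apart from the others of 4A+ in 3 of 56 named models, where chance marks about 1 in 20 groups. For PTA3, the 72 h array, at a ratio of 0.02, was apart from the others by 0.879 of the range. For HRP3, the 96 h array, at 0.41, was apart by 0.851. For CBF5, the 24 h array, at 0.62, was apart by 0.923. The 72 h array of 4A+ was not part of the test.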

How the results depend on the processing

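The count of 104 differing models was 159 with the scanner software's ratio, 164 with median centring (161 of them higher in npq4, so that the split moved), 547 with Benjamini-Hochberg adjustment, 19 with the time point as a replicate block, 190 as single probes, and 61 to 93 with 1 array left out. Of these, 79 with the scanner software's ratio and 87 with median centring were among the 104. The cause was not tested. Whether time pairs the arrays was not settled, and the block result is given only here. It gave 2 called models of the starved level (90 in the report), 2 of the listed genes and 410 of the 0 h level, and the calls of CDO1 and of models 76989, 144348 and 187064 were lost, with adjusted p of 0.074, 0.158, 0.054 and 0.0502 (0.05 was the limit). The starved level differed in 715 models with Benjamini-Hochberg adjustment, in 58 with probes above background in both channels on all arrays, where 4500 models were tested, and in 53 to 115 with 1 array left out. The 0 h level differed in 1090 with Benjamini-Hochberg adjustment and in 378 to 432 with 1 array left out. The share at 0 h was 83.2% with the scanner software's signals, 68.7% with Benjamini-Hochberg adjustment, 53.5% at 2-fold and any p, and 79.6% (without the 96 h array of npq4) to 98.4% with 1 array left out. The count of 4 listed genes was 1 with the scanner software's ratio, 2 without an offset, 1 with normexp fitted on all spots, 13 with Benjamini-Hochberg adjustment, 1 with probes above background in both channels, and 3 whenever 1 array was left out. The LHCSR3 ratio difference was -1.28 to -0.91 with 1 array left out. It was not recomputed with probes above background in both channels, because no probe passed.

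Directions turned for models that did not pass the test. With median centring, the difference was 0.83 for LHCSR1, 0.41 for ARS1, 0.53 for SABC, 0.50 for OASTL4, 0.54 for LHCBM9, 0.0097 for CPX1, 0.26 for CAH1, 0.014 for NAR1.3 and 0.14 for HYDA2. With the scanner software's ratio it was 0.57 for CAH1. For LHCSR1 it ranged from -0.737 to 0.0433 with 1 array left out, and was 0.0284 without the 24 h array of npq4 and 0.0433 without the 48 h array of 4A+. The median of all models was 0.03 in the main scaling, 0.29 with the scanner software's ratio, 0.23 with median centring and 0.13 without an offset. Dim red signal in 4A+ limits falls there to bounds.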

Other observations

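At 0 h, 201 of the 10108 tested models were well above background on every tested probe in 4A+ but on no array of npq4. Of these, 43 had several tested probes. In the other direction there were 330 models, of which 107 had several tested probes.

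Model 184728, 5 genes before LHCSR3 and chosen after its values were seen, had a red level of 9.72, 9.65 and 8.65 in npq4 and of 6.61, 6.74, 6.32 and 6.68 in 4A+. Its difference of 2.67 in red did not pass the test (Holm adjusted p = 0.58, limma).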
